A study of Mus musculus with 4 samples.

Results

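The cytosolic ribosomal protein genes are the genes that encode the protein part of the ribosome in the cytoplasm. They were taken from the GENCODE vM21 gene symbols that begin with Rpl or Rps and go on with a number and at most a short suffix, together with Rplp0, Rplp1, Rplp2 and Rpsa. This rule used no measured value and found 89 of 55487 genes in the tables. Of the 89, 77 encode the standard proteins (43 of the large subunit, 31 of the small subunit and the 3 stalk proteins), 7 are paralogs of a standard gene, and 5 are other genes annotated as pseudogenes. The gene type in the annotation was protein-coding for 83 genes and pseudogene for 6, the sixth being the paralog Rps4l. The members lie on 19 chromosomes, with 15 of them on chromosome 7, and 30 of them contain 58 annotated small nucleolar RNA genes.

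The study measured polyadenylated RNA in stem cells sorted from the intestinal crypts of untreated mice between 6 and 12 weeks old. The genotype was Lgr5-EGFP-IRES-creERT2, in which the Lgr5 locus drives a green fluorescent reporter. Stem cells of the small intestine (SISC) were gated as Lgr5-EGFP+/CD24- and those of the large intestine (LISC) as Lgr5-EGFP+, so the CD24 gate was applied to SISC and was not named for LISC. Each of the 2 groups had 2 libraries, numbered replicate 1 and replicate 2. Nothing in the labels says whether libraries came from separate or pooled animals, so a p-value here reflects no more than how these libraries scatter. Where 4 values are given without labels, their order is SISC replicate 1, SISC replicate 2, LISC replicate 1 and LISC replicate 2.

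Ribosomal proteins assemble with ribosomal RNA into a small subunit, which reads the messenger RNA, and a large subunit, which joins the amino acids. The stalk of the large subunit, built from Rplp0, Rplp1 and Rplp2, recruits the elongation factors. Most messenger RNAs of this family begin with a run of pyrimidines that links their translation to growth signalling, and several of the genes have a paralog whose product can take the parent protein's place. In mammalian genomes these genes have also left many processed pseudogenes, which can share reads with them.

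The replicate number separated the libraries in several ways. Library totals ranged from 12795434 to 27227715 expected counts. Nuclear ribosomal RNA genes took 24.1% of the counts in SISC replicate 1 and 28.5% in LISC replicate 1, against 0.0917% and 0.0997% in the replicate 2 libraries. The median difference between transcript length and the effective length that the authors' tool used was 312 and 236 bases in the replicate 1 libraries and 180 and 178 bases in the replicate 2 libraries (SISC before LISC). Lgr5 was at 114, 173, 147 and 89.8 CPM, the counts relative to library totals scaled by edgeR's TMM factors, and Cd24a at 341, 406, 328 and 503 CPM. The 6 stem cell markers summed to 8531 and 13462 CPM in SISC and to 569 and 448 CPM in LISC, most of the SISC sum being Olfm4. The 5 Paneth cell markers summed to 6582 and 1065 CPM in SISC and to 44.2 and 22.8 CPM in LISC. The 6 goblet and deep crypt secretory markers summed to 1814 and 293 CPM in SISC and to 3192 and 6016 CPM in LISC. Of these 6, 3 were higher and 3 lower in LISC in replicate 1, and all 6 were higher in replicate 2. Reg4, the deep crypt secretory marker among them, was at 88.4, 17.9, 617 and 2796 CPM. Over the 4 libraries the 4 enteroendocrine markers summed to between 32.0 and 153 CPM, with Gip at 0 in both LISC libraries. The other 3 were lower in LISC in replicate 1 and higher in LISC in replicate 2. Tuft cell sums (3 markers) were higher in LISC, at 15.3, 1.97, 64.3 and 100.5 CPM. The 7 absorptive cell markers summed to between 86.2 and 254 CPM, but single genes went opposite ways. By the edgeR fit used below, 5 of these 7 were lower in LISC (2 called) and 2 were higher (1 called). Apoa4 was at 0 in both LISC libraries, whereas Car4 was at 7.86, 9.78, 119 and 181 CPM. The 5 immune markers summed to between 1.16 and 5.57 CPM and the 4 stromal and endothelial markers to under 1 CPM in each library. The part of these differences in the results below was not tested.

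Ribosomal protein genes took a larger part of the expected counts in the replicate 2 libraries of both intestines. Their share of all expected counts was 4.39% in SISC replicate 1, 14.1% in SISC replicate 2, 4.25% in LISC replicate 1 and 10.5% in LISC replicate 2. Counting error on these shares was small: the 95% Wilson interval was at most 0.0262 percentage points wide, and it covers counting error only. With ribosomal RNA and mitochondrial genes left out of the total, the shares were 7.10%, 15.2%, 7.22% and 11.4% in the same order. The difference of their means, LISC minus SISC, was then -1.84 percentage points. The mean share of all expected counts was 9.25% ± 6.87 (SD, n = 2) in SISC and 7.35% ± 4.39 (SD, n = 2) in LISC, a difference of -1.90 percentage points (exact two-sided permutation p = 0.667, where the smallest p that 2 against 2 libraries can give is 0.333). The spread between replicates was therefore larger than the difference between the intestines. Fewer cells that express these genes strongly and less of their RNA per cell cannot be told apart in sorted bulk samples.

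Levels per transcript length were high for nearly all of the 77 standard genes. The median over them, in TPM, RSEM's measure of transcript abundance per length that sums to the same total in every library, was 971 and 3339 in SISC and 824 and 2560 in LISC. Rpl41, which encodes the smallest protein of the large subunit, had the highest mean TPM of the family, with 1363 and 11393 TPM in SISC and 1296 and 9810 TPM in LISC. It ranked first among the 77 in both replicate 2 libraries, but only 23rd in SISC replicate 1 and 11th in LISC replicate 1. The stalk gene Rplp1 had 4582 and 8446 TPM in SISC and 2552 and 5515 TPM in LISC, and ranked first in both replicate 1 libraries. Rpl13a, Rps24, Rps27 and Rps15 completed the 6 genes with the highest means. Rps24, which encodes a small subunit protein needed for the maturation of small subunit ribosomal RNA, had 2403, 8323, 1705 and 6574 TPM.

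The order of levels among the 77 genes was closer between the intestines within a replicate number than between the replicates of an intestine. The correlation of log2 TPM across these 77 genes was 0.932 (Pearson) between SISC and LISC in replicate 1 and 0.989 in replicate 2, but 0.676 between the SISC replicates and 0.773 between the LISC replicates. Over all genes tested below, the order was the reverse. Their log CPM correlation was 0.915 between the SISC replicates and 0.922 between the LISC replicates. Between the intestines it was 0.880 in replicate 1 and 0.882 in replicate 2. All of these correlations are descriptions across genes, which are not independent replicates and share the library. The genes also spread more in SISC replicate 1, where the highest level was 67.1 times the lowest, against 13.1 times in SISC replicate 2. The low end in both replicate 1 libraries was Rpl5, with 68.3 and 166 TPM, against 1076 and 925 TPM in replicate 2. The mean TPM of small subunit genes was 1.38, 1.18, 1.35 and 1.14 times that of large subunit genes in the same library order.

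**Figure D1:**
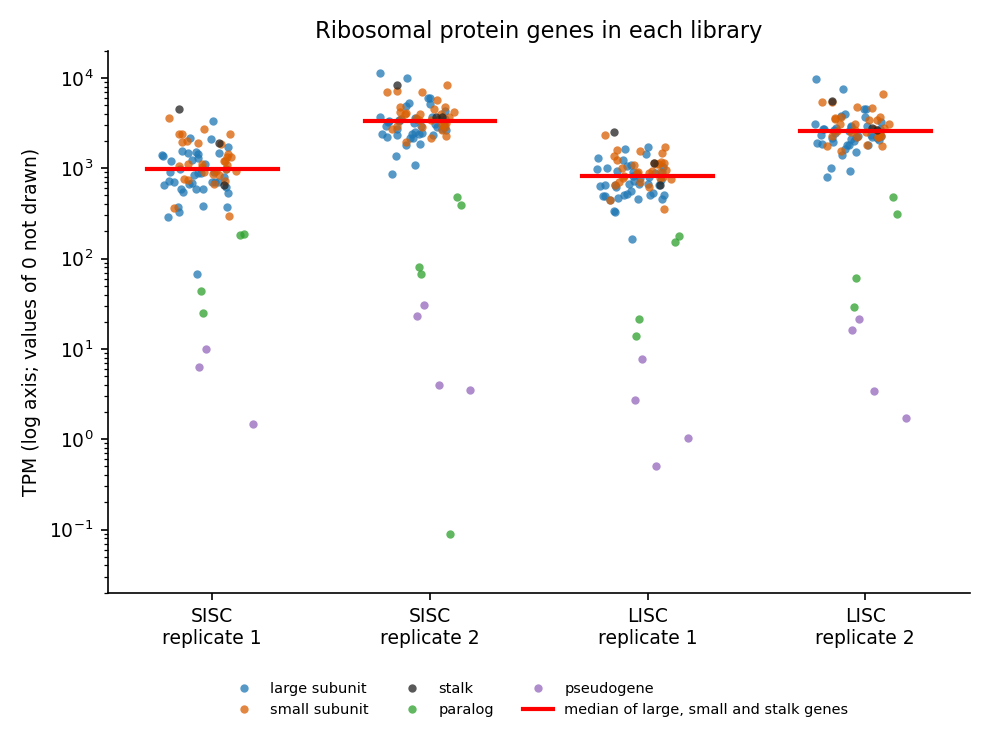
TPM of each ribosomal protein gene (points, coloured by role) in the 4 libraries, on a log axis, with a red line at the median of the 77 standard genes. The medians of 3339 and 2560 in the replicate 2 libraries stand above the 971 and 824 of the replicate 1 libraries, and the paralogs and pseudogenes lie below nearly all standard genes.

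The start sites of these genes are shown because the family is known for a pyrimidine run there. RefSeq's promoter table (GRCm38.p6) held 57 of the 77 standard genes, and each was searched from 50 bases before the annotated start to 50 bases after it. The sense strand, which reads as the RNA does, held the pyrimidine motif CTTTC in 31 of the 57 genes (54.4%), against 14.5% of 26961 other genes. On the opposite strand the motif was present in 10.5% against 13.8%. The longer run CTTTTC, which does not contain CTTTC, was present on the sense strand in 15.8% of the standard genes and 4.29% of the others. CCGGAAG, a motif bound by ETS family factors, was found on either strand in 22.8% against 5.94%. The sequences below run from 40 bases before to 14 bases after the RefSeq start of 2 of the 6 genes with the highest levels, with CTTTC in capitals. Both were chosen because they hold the motif. The same window of Rpl41 and of Rps15, also among these 6 genes, held no CTTTC. The annotated starts can be several bases off the start used in these cells.
Rpl13a, chr7:45128732-45128785, minus strand: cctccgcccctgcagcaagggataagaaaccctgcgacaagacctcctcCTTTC
Rps27, chr3:90213635-90213688, minus strand: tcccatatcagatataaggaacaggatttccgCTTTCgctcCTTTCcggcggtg

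No ribosomal protein gene passed the test between the intestines. Of the 89 members, 84 had enough counts to be tested among 14165 genes, and edgeR's quasi-likelihood test with Benjamini-Hochberg adjustment called 0 of the 84 in either direction at an adjusted p of 0.05. Over all genes, 206 calls (1.45%) were higher in LISC and 105 (0.741%) were higher in SISC. At an unadjusted p under 0.05 the edgeR test held 1 member, Rps4l, against 13.4% of all genes. DESeq2 called the same gene and no other member.

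The fitted differences of the members nearly all had the same sign. Their median log2 difference (LISC over SISC) was -0.29, with 82 of 84 below 0. Over all genes tested the median was -0.021, with 7370 of 14165 below 0. The members' median depended on single libraries. It was -0.82 without SISC replicate 1 and 0.50 without SISC replicate 2, and 0.039 without LISC replicate 1 and -0.75 without LISC replicate 2. Both SISC libraries lay above both LISC libraries in CPM for 4 of the 84 members, against 18.4% of all genes, and the reverse held for 0 members, against 21.9% of all genes. The 4 were Rps4l, Rpsa, Rplp0 and Rpl27. With pseudogene copies added to Rpl27, its LISC replicate 2 lay above its SISC replicate 1 and the groups overlapped.

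In replicate 2 every tested member was lower in LISC, whereas in replicate 1 the direction depended on the measure, with no common direction in CPM. Within replicate 2, LISC was below SISC for 84 of 84 members, with a median log2 CPM ratio of -0.47, while 50.4% of all genes were below 0. Among other genes of similar length, 66.9% were below 0 under 600 bases (median -0.24) and 58.8% at 600 to 1000 bases (median -0.10). Among the 77 standard genes this ratio ran only from -0.72 (Rplp1) to -0.20 (Rpl7a). Within replicate 1, LISC was below SISC for 43 of the 83 members with a count in both libraries, with a median of -0.040, and the standard genes ran from -0.67 (Rpsa) to 1.33 (Rps28). So 43 members were lower in LISC in CPM in both replicate numbers, as were 35.0% of all genes tested. The first count is fixed by replicate 1 alone. In TPM, LISC was below SISC for 62 of the 77 standard genes in replicate 1 and for 77 of 77 in replicate 2. TPM is not scaled by TMM factors and its total includes ribosomal RNA genes. The share of all genes with a lower TPM in LISC was not computed. Each ratio compares 1 library with 1 library and has no replicate check of its own.

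**Figure D2:**
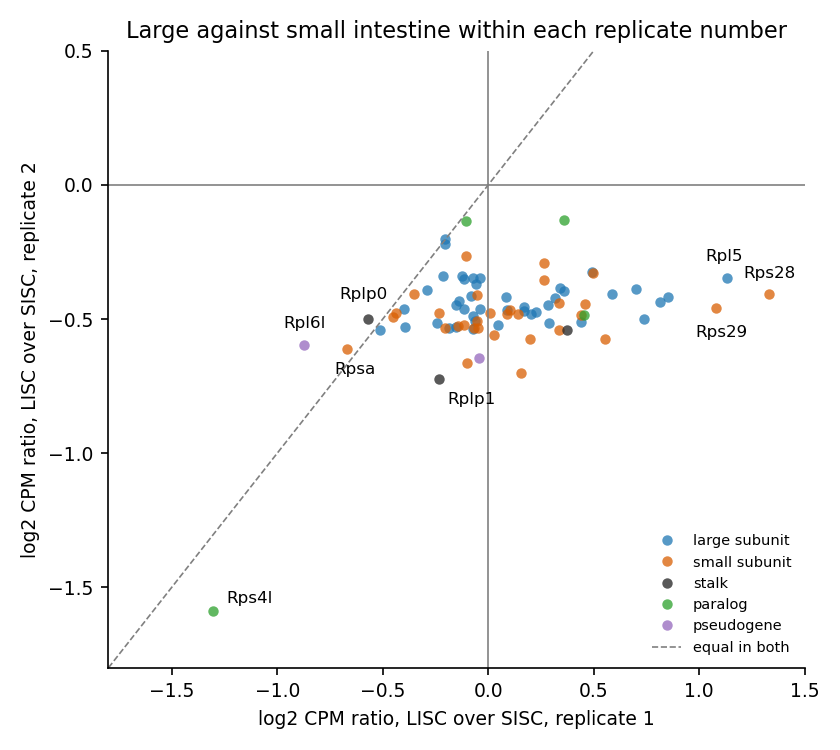
Log2 CPM ratio of LISC over SISC for each tested member in replicate 1 (horizontal axis) and replicate 2 (vertical axis), coloured by role, with a dashed line where both are equal. All points lie below 0 on the vertical axis, around the median of -0.47, while on the horizontal axis they run from -1.30 (Rps4l) to 1.33 (Rps28).

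Among the 43 large subunit genes, the median fitted log2 difference was -0.29, and all 43 values were below 0. Rpl27, a core protein of the large subunit, had 703 and 870 TPM in SISC and 447 and 804 TPM in LISC. Its CPM varied little between replicates, with means of 322 ± 4.75 in SISC and 277 ± 1.98 in LISC (SD, n = 2), and its log2 ratio was -0.21 in replicate 1 and -0.22 in replicate 2. Its fitted log2 difference was -0.21 ± 0.31 (SE), with an edgeR adjusted p of 0.957, and pseudogene copies took part of its counts, as given further on.

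Among the 31 small subunit genes, the median fitted log2 difference was -0.31, and the values ran from -0.64 (Rpsa) to -0.044 (Rps29). Rpsa encodes the protein SA, a small subunit component also known as the laminin receptor. It had 1886 and 3581 TPM in SISC and 1094 and 2514 TPM in LISC. Both SISC libraries were above both LISC libraries in CPM, with log2 ratios of -0.67 in replicate 1 and -0.61 in replicate 2. The fitted log2 difference of -0.64 ± 0.46 (SE) did not pass, with an edgeR adjusted p of 0.763. At the other end, Rps29, a short zinc-binding protein gene, had 1316 and 4773 TPM in SISC and 1494 and 3728 TPM in LISC. Its log2 CPM ratio was 1.08 in replicate 1 and -0.46 in replicate 2, and the fitted log2 difference was -0.044 ± 0.79 (SE). Rps28 had opposite signs in the replicates too, with a ratio of 1.33 in replicate 1 and -0.41 in replicate 2.

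The 3 stalk genes had a median fitted log2 difference of -0.53. Rplp0, the base of the stalk and a gene often used as a reference in quantitative PCR, had 1899 and 3684 TPM in SISC and 1141 and 2790 TPM in LISC. Both SISC libraries were above both LISC libraries in CPM, with log2 ratios of -0.57 in replicate 1 and -0.50 in replicate 2. Its fitted log2 difference was -0.53 ± 0.47 (SE), with an edgeR adjusted p of 0.845. Rplp1 had ratios of -0.23 and -0.72, and its fitted log2 difference of -0.53 ± 0.50 (SE) had an edgeR adjusted p of 0.871. Rplp2, which pairs with Rplp1 in the stalk, had 660 and 3678 TPM in SISC and 648 and 2621 TPM in LISC. Its ratio was 0.37 in replicate 1 and -0.54 in replicate 2.

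Ribosomal protein transcripts are short, and in replicate 1 the ratio between the intestines tended to fall with their length. The median transcript length was 677 bases for the tested members and 2368 bases for all tested genes. In replicate 1, the log2 CPM ratio of LISC over SISC had a Spearman correlation of -0.436 with length across 83 members, and of 0.0437 after each count was divided by the effective length in its library. In members shorter than 600 bases the median ratio was 0.23, and in those of 600 to 1000 bases it was -0.053. Other genes of the same lengths had medians of 0.35 and 0.10. The effective length of Rps27, the shortest tested transcript with 346 bases, was 61.5 bases in SISC replicate 1 and 118 bases in LISC replicate 1, but 167 and 169 bases in replicate 2.

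Dividing by effective length moved single ratios in both replicate numbers, and the members' median more in replicate 1 than in replicate 2. Rps28, a short small subunit gene of 385 bases, had a replicate 1 log2 ratio of 1.33 from the counts and of 0.62 after the division, and Rps29 of 1.08 and 0.38. Longer transcripts moved too: Rpl12, with 952 bases, went from -0.063 to 0.45. In replicate 2, Rps24 went from -0.29 to -0.45. Over all members the length-adjusted median was -0.11 in replicate 1, with 52 of 83 below 0, and -0.47 in replicate 2, with 84 of 84 below 0. Of all genes, 51.2% in replicate 1 and 50.7% in replicate 2 were below 0 on this TMM-scaled measure. Rpl5 stayed at the top after the division, with 1.13 from the counts and 1.48 after it. edgeR with effective lengths as offsets again called 0 members.

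**Figure D3:**
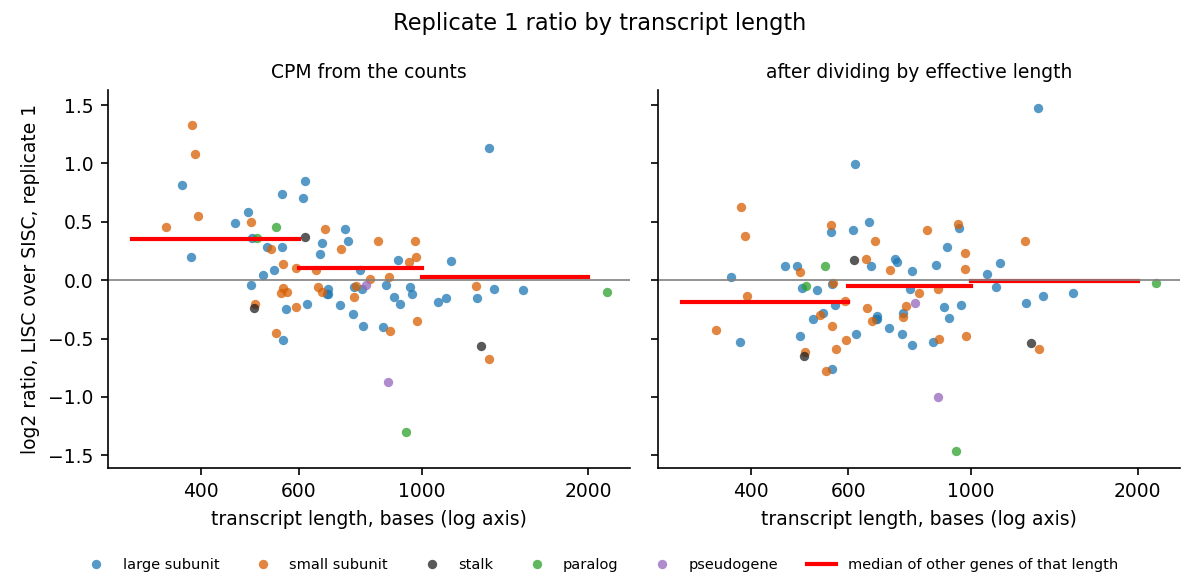
Log2 ratio of LISC over SISC in replicate 1 for each tested member against transcript length in bases (log axis), from CPM (left) and after dividing counts by effective length (right), with red lines at the medians of other genes of 3 length ranges. On the left shorter transcripts tend to lie higher (Spearman -0.436), with Rps28 highest at 1.33, but the long Rpl5 comes next at 1.13. On the right no slope with length remains (Spearman 0.0437).

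The replicates of 1 intestine differed more for these genes than the intestines did. Replicate 2 was above replicate 1 for 83 of 83 members in SISC, with a median log2 CPM ratio of 1.40, and for 83 of 84 in LISC, with a median of 0.77. All genes tested had medians of 0.017 in SISC and 0.083 in LISC, with 50.8% and 55.5% above 0, but other short genes were also higher in replicate 2. Under 600 bases, 69.7% of other genes were above 0 in SISC and 69.9% in LISC, and at 600 to 1000 bases 82.8% and 81.5%. The medians of these other genes were 1.07 and 0.75 under 600 bases, where members had 1.47 and 0.85. At 600 to 1000 bases they were 0.74 and 0.58, where members had 1.29 and 0.80. The exception in LISC was Rpl22l1, at -0.047. After dividing by effective length the members' medians were 0.98 in SISC, with 81 of 83 above 0, and 0.65 in LISC, with 79 of 84 above 0. Of all genes, 50.5% in SISC and 55.7% in LISC were then above 0.

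By the mean of the SISC and LISC log2 ratios, the largest replicate ratios were those of Rpl5, Rpl41, Rps28 and Rpl36a. Rpl5, whose protein carries 5S ribosomal RNA into the large subunit together with Rpl11, had a log2 ratio of 3.52 in SISC and 2.04 in LISC. Rpl41 had 2.92 and 2.10, Rps28 had 3.16 and 1.42, and Rpl36a had 2.46 and 1.47. By the same mean, the smallest among members with the same sign in both intestines were those of Rpl27 (0.030 and 0.015), Rpsa (0.18 and 0.24), Rpl10 (0.38 and 0.072) and Rps4l (0.42 and 0.14). Rpl10 encodes a late-joining protein at the large subunit's interface, and had 1503 and 2138 TPM in SISC and 1082 and 1787 TPM in LISC. Members at both extremes are long as well as short: Rpl5 and Rpsa both have transcripts of over 1000 bases.

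Rps4l was the member with the largest difference between the intestines. It is a paralog of the X-linked gene Rps4x, whose product sits in the body of the small subunit, and it is annotated as a transcribed processed pseudogene at chr6:148354656-148355598 (GRCm38, plus strand). It had 534 and 1668 expected counts in SISC and 170 and 504 in LISC, or 43.5 and 80.4 TPM against 13.8 and 28.9 TPM. Both SISC libraries were above both LISC libraries in CPM, with means of 45.5 ± 9.37 in SISC and 16.5 ± 1.11 in LISC (SD, n = 2). The log2 ratio was -1.30 in replicate 1 and -1.59 in replicate 2. The fitted log2 difference was -1.46 ± 0.26 (SE), and it missed the threshold with an edgeR adjusted p of 0.0758.

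The call on Rps4l depended on the tool and on the filter. DESeq2 gave it an adjusted p of 0.00104 and edgeR with no filter on low counts an adjusted p of 0.00134, while limma on log2(TPM + 1) gave 1.0. The size of the difference ranged from -1.20 to -1.66 over the 16 alternatives. On the opposite strand Rps4l lies within Tmtc1, which had 5 and 23 counts in SISC and 0 and 2 in LISC. The parent gene Rps4x did not share the pattern: it had 856 and 3439 TPM in SISC and 881 and 2550 TPM in LISC, and a fitted log2 difference of -0.25 ± 0.64 (SE). The TPM of Rps4l was 5.08% and 2.34% of that of Rps4x in SISC and 1.57% and 1.13% in LISC.

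The sequences of Rps4x and Rps4l are shown to mark how far the paralog differs from its parent. The Rps4x coding sequence and the Rps4l transcript in GENCODE vM21 (GRCm38) aligned over 789 bases, of which 628 (79.6%) were identical. The 60 bases below lie in 1 exon of each gene and were chosen as those with the most mismatches, 19, which are in capitals.
Rps4x, chrX:102186413-102186472, minus strand: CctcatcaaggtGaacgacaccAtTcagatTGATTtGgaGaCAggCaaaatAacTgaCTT
Rps4l, chr6:148355165-148355224, plus strand: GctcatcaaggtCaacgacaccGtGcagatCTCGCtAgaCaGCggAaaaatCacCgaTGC

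The other expressed paralogs were well below their parents in each library. Rpl22l1, which can replace Rpl22 in the large subunit, had 188 and 394 TPM in SISC and 179 and 310 TPM in LISC. That was 27.0% and 17.1% of the TPM of Rpl22 in SISC and 35.8% and 17.2% in LISC, so the replicate numbers differed more than the intestines. Rps27l, a p53 target in other settings, had 181 and 483 TPM in SISC and 152 and 476 TPM in LISC, which was 5.07% and 6.94% of Rps27 in SISC and 6.57% and 8.69% in LISC. Rpl7l1, a paralog of Rpl7, lay between 2.80% and 3.82% of Rpl7 in the 4 libraries. The fitted log2 differences of Rpl22l1, Rps27l and Rpl7l1 were -0.086, 0.022 and -0.12, with edgeR adjusted p-values of 1.0, 1.0 and 0.993.

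Rps27 and Rps27l are shown over 60 bases of coding sequence in the same way, bases 7 to 66 from the start codon. They aligned over 251 coding bases, of which 72.1% were identical, and the 19 mismatches of this stretch are in capitals.
Rps27, chr3:90213242-90213301, minus strand: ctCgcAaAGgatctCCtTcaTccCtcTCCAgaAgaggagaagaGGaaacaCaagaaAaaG
Rps27l, chr9:66946831-66946890, plus strand: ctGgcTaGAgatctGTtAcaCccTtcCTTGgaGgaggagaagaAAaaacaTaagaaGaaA

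The paralogs known for restriction to muscle or testis were at or near 0. Rpl10l and Rpl39l, both expressed in male germ cells, had 0 counts in the 4 libraries, and Rpl3l, a muscle paralog, had 2 counts in SISC replicate 2 and 0 in the others. A count of 0 allows up to 3 counts. Of the 5 other pseudogene members, Rps12l1 had 0 counts in the 4 libraries. Rpl32l, Rps3a3, Rpl6l and Rps3a2 had between 0 and 515 counts, and their highest level was 30.9 TPM, for Rps3a2 in SISC replicate 2. Rpl6l, 98.7% identical to Rpl6 over its aligned part, had a fitted log2 difference of -0.66 ± 0.74 (SE). Rps3a3 had a count of 0 in SISC replicate 1 and of 5 in LISC replicate 1, so its fitted log2 difference of 0.023 is given without weight.

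Reads of several standard genes were divided with pseudogene copies outside the family list. An alignment of pseudogene transcripts to the protein-coding members found 1633 copies of 79 members at 85% identity or more over at least 150 bases. These copies took 6.43% and 3.97% of the counts of copies plus members in SISC, and 5.49% and 3.86% in LISC. The share passed 10% in at least 1 library for 13 members, and it was higher in replicate 1 than in replicate 2 in both intestines for 34 of 79. Reads of an identical copy cannot be assigned by sequence.

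Copies took the largest share for Rpl5. They took 88.2% and 55.0% of the counts of Rpl5 and its copies in SISC, and 78.0% and 51.6% in LISC. The main copy was Gm15500, a transcribed processed pseudogene at chr7:114705217-114706235 (GRCm38, minus strand) that is identical to Rpl5 over 1018 bases. It had 10378 and 45427 expected counts in SISC and 8519 and 28345 in LISC, against 1395 and 37305, and 2398 and 26671, for Rpl5 itself. With copies added, the replicate ratio of Rpl5 was 1.60 in SISC and 0.91 in LISC in place of 3.52 and 2.04, and its replicate 1 ratio between the intestines was 0.24 in place of 1.13. The level of Rpl5 in these tables is therefore uncertain.

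The copy share went the other way for Rpl27. Its copies took 19.7% and 44.0% in SISC and 24.9% and 43.1% in LISC, mainly through Gm11518, and with copies added its replicate ratios were 0.55 in SISC and 0.42 in LISC in place of 0.030 and 0.015. For Rpl12, a large subunit gene at the base of the stalk, the share was 36.8% and 2.89% in SISC and 19.4% and 2.61% in LISC. For Rpl27a it was between 41.1% and 45.8% in all libraries. With every copy added to its parent, edgeR again called 0 members, and the median fitted log2 difference was -0.30.

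**Figure D4:**
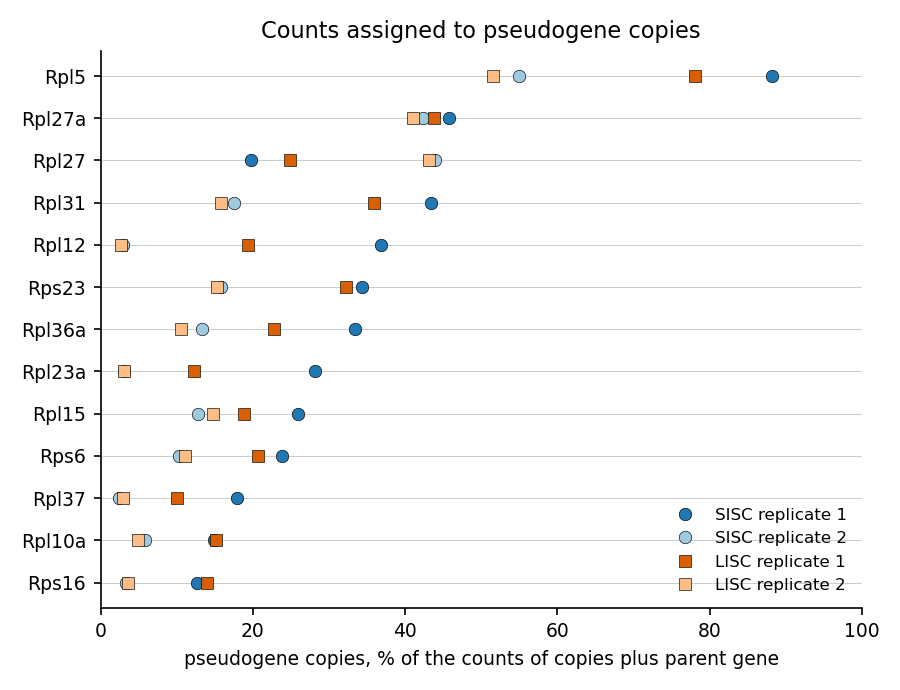
Share of counts (%, horizontal axis) that went to pseudogene copies rather than to the parent gene, for the 13 members where it passed 10% in at least 1 library, with circles for SISC and squares for LISC, darker for replicate 1. For most genes the replicate 1 libraries lie to the right, Rpl5 furthest at 88.2%, while for Rpl27 they lie to the left.

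The other genes of protein synthesis were described by lists, and 0 genes of these lists passed the edgeR test in either direction. Fau, a ribosomal protein gene whose symbol falls outside the pattern, encodes a small subunit protein fused to a ubiquitin-like one, and had 1064 and 3612 TPM in SISC and 646 and 3060 TPM in LISC. Its log2 ratio was -0.048 in replicate 1 and -0.34 in replicate 2. The 11 elongation factors had a median of -0.29, with LISC lower in 10 of 11 in each replicate number. Eef1a1, which delivers aminoacyl-tRNA to the ribosome, had 4350 and 9197 TPM in SISC and 3225 and 7697 TPM in LISC. The 59 ribosome assembly and nucleolar factors had a median of -0.29, and LISC was lower for 52 of 59 in each replicate number, against 50.5% and 50.4% of all genes. Ncl, which encodes nucleolin, had log2 ratios of -0.63 and -0.53, and Npm1, which encodes nucleophosmin, of -0.28 and -0.69.

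The 42 initiation factors had a median of -0.13, with LISC lower for 29 in replicate 1 and for 28 in replicate 2. Pabpc1, the cytoplasmic poly(A) binding protein, had 534 and 1131 TPM in SISC and 233 and 719 TPM in LISC, and a fitted log2 difference of -0.93 with an edgeR adjusted p of 0.524. The 8 genes of the Myc family and its partners had a median of -0.20. Myc, a transcription factor known to drive ribosomal protein genes, had 46.4 and 81.7 TPM in SISC and 37.6 and 62.2 TPM in LISC, with log2 ratios of -0.15 and -0.52 and an edgeR adjusted p of 0.825. The 11 nascent chain and ribosome-associated factors had a median of -0.046. The 9 small nucleolar RNA host genes outside the family had a median of -0.43. Like the ribosomal protein genes, these hosts were lower in LISC in replicate 2 (9 of 9, median -0.74) while in replicate 1 this held for 2 of 9 from the CPM (median 0.035) and for 7 of 9 after dividing by effective length (median -0.32).

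Mitochondrial ribosomal protein genes, which are also short but serve another ribosome, had a median fitted log2 difference of -0.088 over 78 genes. Their median ratio between the intestines was -0.058 in replicate 1 and -0.10 in replicate 2, and replicate 2 was above replicate 1 by 0.72 in SISC and 0.63 in LISC. The 76 nuclear oxidative phosphorylation genes had ratios of 0.27 and 0.020 between the intestines (0.055 in replicate 1 after dividing by effective length), and replicate ratios of 1.08 and 0.83. A higher level in replicate 2 was thus measured in all 3 of these sets of shorter genes. It was also measured in the longer elongation, initiation and assembly factors. Their medians were 0.56, 0.34 and 0.32 in SISC and 0.49, 0.43 and 0.255 in LISC, in that order. Genes outside the family of 2000 bases or more had medians of -0.19 in SISC and -0.070 in LISC. Differences between the sets were not tested. The 75 tested pseudogenes with a -ps symbol had a median fitted log2 difference of -0.37.

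**Figure D5:**
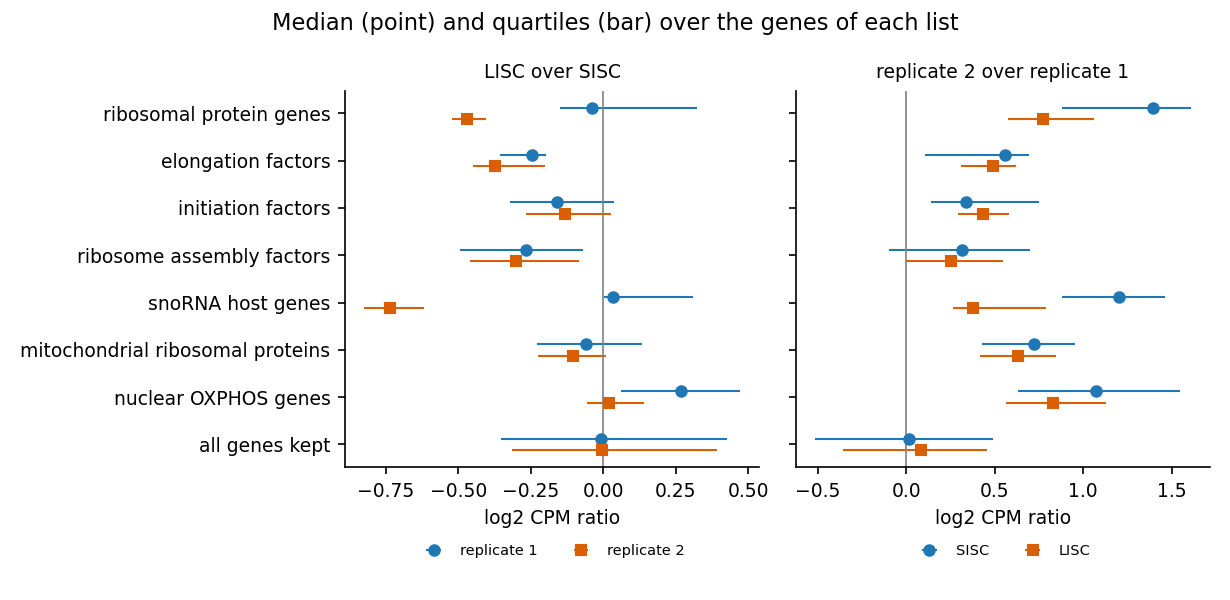
Median (points) and quartiles (bars) of the log2 CPM ratio over the genes of 8 lists, for LISC over SISC within each replicate number (left) and for replicate 2 over replicate 1 within each intestine (right). Ribosomal protein genes and small nucleolar RNA host genes have the lowest medians in replicate 2 on the left (-0.47 and -0.74). On the right, ribosomal protein genes have the highest median in SISC (1.40). In LISC, nuclear oxidative phosphorylation genes are highest (0.83, against 0.77 for ribosomal protein genes).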

How the data were processed

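Polyadenylated RNA was sequenced from 4 libraries (2 SISC, 2 LISC) made with a directional kit. The submitters' processing notes name STAR 2.7.2b, RSEM 1.2.31 and GRCm38; the annotation release and strand setting were not stated in any source used. Per the file headers, the authors deposited, for each gene, RSEM's expected count, TPM, transcript length, effective length and the posterior standard deviation of the count (other columns, used as descriptions). Expected counts were rounded and tested with edgeR 4.0.16 (R 4.3.3) by the quasi-likelihood test, TMM scaling and filterByExpr at a minimum count of 10; 14165 genes were kept. CPM are TMM-scaled. Alternatives used DESeq2 1.42.0, limma 3.58.1 on log2(TPM + 1), other filters and scalings, effective length offsets, a replicate block and libraries left out. Pseudogene copies were found with blastn 2.17.0. Gene symbols came from GENCODE vM21, which matched 55227 of 55487 identifiers. The fits were also run on simulated counts, which had less spread between libraries than these data and no replicate effect on expression. That run therefore does not give their error rates here. The members and lists were chosen with earlier results of these data known. The text names the 6 members with the highest and 6 with the lowest TPM, the 5 largest differences in each direction, the 4 largest and 4 smallest replicate ratios, the paralogs with their parents, the stalk genes and Rpsa, and of each list the 2 genes with the highest TPM or some of them; genes named for their length or pseudogene copies, and those that end a range, were chosen after their values were seen. Some genes that this rule names are not reported here.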

Additional observations from a re-analysis of the deposited data

How the results depend on the processing

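The settings were compared over 16 alternatives to the edgeR fit. Genes called higher in LISC over all genes numbered 206, against 785 with DESeq2, 942 with no filter on low counts and 166 to 338 with a library left out, most without SISC replicate 1. Genes called higher in SISC numbered 105, against 398 with DESeq2 and 465 with no filter. The number of ribosomal protein genes called higher in SISC was 0, and became 1 (Rps4l) under DESeq2 or without a low-count filter. The median log2 difference of the members ranged from -0.82 to 0.50 with a library left out and was 0.039 when libraries were scaled to the ribosomal protein gene total, which sets that total equal by construction and moves the median of all genes to 0.19. The share difference lay between -6.76 and 2.96 percentage points with a library left out.

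The replicate numbers pair only 2 samples a group and nothing in the labels says what they share; the deviations of the replicate 1 libraries from their group means had a correlation of 0.648. With the replicate block, edgeR called 1015 genes higher in LISC and 524 higher in SISC, with 1 ribosomal protein gene (Rps4l, adjusted p 0.00645) among them. With the replicate block and effective length offsets, added after seeing the data, the numbers were 1125, 626 and 1 (Rps4l). Adding pseudogene copies to their parents, also added then, moved no count by over 1.5 times. Of 53 named genes with a fitted difference, 38 changed sign without a call in some alternative, 10 of them only when a library was left out, 4 gained a call (Rps4l, and Pabpc1, Rpl31-ps8 and Rpl36a-ps2 with block and offsets together), 0 lost one and 0 reversed. Other causes of these changes were not tested.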
